A study of Mus musculus with 12 samples.

Results

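The mitochondrially encoded genes are the 37 genes of the deposited table whose names begin with mt-, among 40481 genes in all. They comprise 13 protein genes, 2 ribosomal RNA genes and 22 transfer RNA genes, each taken once by its Ensembl gene ID. They were followed across 12 RNA-seq libraries of mouse hematopoietic stem cells (HSCs), the cells that give rise to all blood lineages. Their genotype was either wild type, abbreviated WT, or iE/R, the labels' name for inducible ETV6-RUNX1. ETV6-RUNX1 is a fusion of the transcription factor genes ETV6 and RUNX1 that is known from childhood B-cell precursor leukemia. Each genotype was studied from fetal liver at E14.5, a day of embryonic development, and from bone marrow at 8 weeks of age, with 3 libraries in each of the 4 groups. After sorting, the cells of all groups, WT included, were kept for 3 days in an ex vivo medium that expands HSCs, to which doxycycline was added at 1 µg/mL. Doxycycline is the drug that switches such transgenes on. It belongs to the tetracyclines, antibiotics that can also act on mitochondrial ribosomes, and no group was cultured without it. The sorting gate, the promoter that drives the transgene, the number and sex of the animals behind a library and any pooling are not given in the sources used here. No label says that the 3 libraries of a group came from separate animals or cultures, so the p-values below measure only the spread between these libraries, which may be technical.

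Mitochondria keep a small circular genome that encodes core subunits of the respiratory chain and the ribosomal and transfer RNAs needed to translate them. Its genes have no introns. Nearly the whole circle is transcribed from both strands as long polycistronic RNAs, which are cut into single RNAs mostly at the tRNA sequences that lie between the other genes. HSCs are known for relying on glycolysis at rest and for using more oxidative phosphorylation when they are activated or differentiate. All other proteins of mitochondria, including those that copy, transcribe, process and translate the mitochondrial genome, come from nuclear genes.

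Nuclear copies of mitochondrial DNA limit what can be read from several members. Aligned to the transcripts of the GENCODE M21 annotation (build GRCm38), 7 of the 37 members had a near-identical copy, defined as at least 99% identity over at least 100 bases. All 7 copies lie in a single block on the minus strand of chromosome 1, between positions 24611535 and 24616197, which matches mitochondrial bases 6390 to 11042. mt-Co2, mt-Atp6, mt-Co3, mt-Nd4l and the first 876 bases of mt-Nd4 were 100% identical to Gm28661, Gm10925, Gm28437, Gm10222 and Gm28439. mt-Nd3 differed from Gm28438 at 1 base of 345, T3C, counted from 1 at the 5′ end of mt-Nd3. The last 483 bases of mt-Co1 differed from Gm29216 at 1 base, A1066T, counted likewise in mt-Co1. In these reference sequences no other base tells the pairs apart over the aligned stretch. Whether the mice used carried the reference base was not tested. The sequences around both differences are printed, with the differing base in capitals.
mt-Nd3, chrM:9459-9491, plus strand: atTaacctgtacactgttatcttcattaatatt
Gm28438, chr1:24613087-24613119, minus strand: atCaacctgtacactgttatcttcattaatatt
mt-Co1, chrM:6390-6423, plus strand: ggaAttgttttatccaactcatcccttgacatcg
Gm29216, chr1:24616155-24616188, minus strand: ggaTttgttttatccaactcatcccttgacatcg
How reads that fit several places were counted is not given in the sources used here. The levels of mt-Co1, mt-Co2, mt-Atp6, mt-Co3, mt-Nd3, mt-Nd4l and mt-Nd4 are therefore uncertain, as is that of mt-Atp8, which shares 43 bases with Gm10925 and with mt-Atp6. mt-Nd1 had no aligned copy at 90% identity or more, and mt-Nd2, mt-Nd5, mt-Nd6 and mt-Cytb had only more distant ones. The sequences are those of GENCODE M21 transcripts on GRCm38.

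Library totals ran from 32.3 to 64.5 M reads, and 13012 to 13750 genes reached 1 CPM (reads of a gene scaled to a common library total). The detection floor was set at 3 reads, which corresponded to 0.0465 to 0.0928 CPM and covers counting error only. Measures linked to RNA quality moved with the groups. Processed pseudogenes took 2.01 ± 0.355% of reads in WT and 1.51 ± 0.352% in ETV6-RUNX1 fetal liver (SD, n = 3), against 1.84 ± 0.341% and 2.34 ± 0.211% in bone marrow. Malat1, an RNA kept in the nucleus, was 2110.1 ± 314 CPM in WT and 8446 ± 2393 CPM in ETV6-RUNX1 fetal liver, and 3073 ± 387 and 7323 ± 1677 CPM in bone marrow. Neat1, another nuclear RNA, was 93.0 ± 34.2 and 739 ± 63.9 CPM in fetal liver and 98.2 ± 12.3 and 189.9 ± 72.3 CPM in bone marrow. Xist, which marks female cells, was 0.175 to 0.324 CPM in WT and 0.216 to 1.27 CPM in ETV6-RUNX1 bone marrow, and 54.4 to 89.3 and 51.7 to 70.1 CPM in fetal liver, so the source and the makeup by sex cannot be told apart.

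The summed levels of marker genes also differed between the genotypes, which was not tested. The 10 HSC markers, all at a mean of 1 CPM or more, were present in every group and summed to 1639.7 to 1977 CPM in WT and 4169 to 4377 CPM in ETV6-RUNX1 fetal liver, and to 1755 to 2582 and 2951 to 3256 CPM in bone marrow. The 8 megakaryocyte markers, all at a mean of 1 CPM or more, summed to 3109 to 4605 and 7328 to 8122 CPM in fetal liver and to 1376 to 1838 and 477 to 2116 CPM in bone marrow. For each further list the sum is given for WT and then for ETV6-RUNX1. Of 9 erythroid markers, 5 reached a mean of 1 CPM, and their sum was 729 to 1009.7 and 1429 to 2211 CPM in fetal liver and 234 to 518 and 420.4 to 633 CPM in bone marrow. For granulocyte markers, 7 of 8 at that level, it was 238 to 312 and 37.4 to 55.1 CPM in fetal liver and 154 to 367 and 103 to 128 CPM in bone marrow. For macrophage markers, 3 of 8, it was 40.4 to 47.8 and 113 to 120.1 CPM in fetal liver and 39.3 to 58.3 and 85.4 to 108 CPM in bone marrow. For lymphoid markers, 1 of 8 with Cd3e at 0 in every library, it was 49.8 to 104 and 2.48 to 2.78 CPM in fetal liver and 87.6 to 122 and 8.25 to 11.9 CPM in bone marrow. For hepatocyte markers, 2 of 7 with Fgb and Serpina1a at 0 in every library, it was 15.9 to 20.5 and 16.2 to 18.1 CPM in fetal liver and 21.7 to 34.1 and 25.2 to 37.9 CPM in bone marrow. For stroma and endothelium, 5 of 8, it was 75.2 to 107 and 146 to 176 CPM in fetal liver and 65.8 to 99.01 and 90.4 to 97.3 CPM in bone marrow. For mast cells and basophils, 2 of 8 with Prss34 at 0 in every library, it was 5.72 to 9.94 and 7.65 to 12.3 CPM in fetal liver and 9.56 to 13.8 and 8.78 to 10.7 CPM in bone marrow. The part of these differences in the results below was not tested, and in bulk libraries fewer cells of a type and less RNA per cell cannot be told apart.

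Between 0.921% and 1.84% of a library's reads fell on the 37 members. The 13 protein genes took 0.982%, 0.853% and 0.911% of reads in WT bone marrow replicates 1 to 3 and 0.769%, 0.853% and 0.843% in ETV6-RUNX1 bone marrow. They took 0.738%, 0.805% and 0.914% in WT fetal liver and 0.537%, 0.496% and 0.482% in ETV6-RUNX1 fetal liver. The 3 ETV6-RUNX1 fetal liver libraries thus lay below the 9 others, and the WT fetal liver range overlapped both bone marrow groups. For the 2 rRNA genes the shares were 0.672 ± 0.166% in WT and 0.718 ± 0.0904% in ETV6-RUNX1 bone marrow, and 0.684 ± 0.0847% and 0.499 ± 0.105% in fetal liver. Here ETV6-RUNX1 fetal liver replicate 3 (0.619%) lay among the WT fetal liver libraries (from 0.605%). Library kits of the type named in the labels cut away fragments of ribosomal RNA, so the rRNA genes are seen only through what that step leaves.

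**Figure D1:**
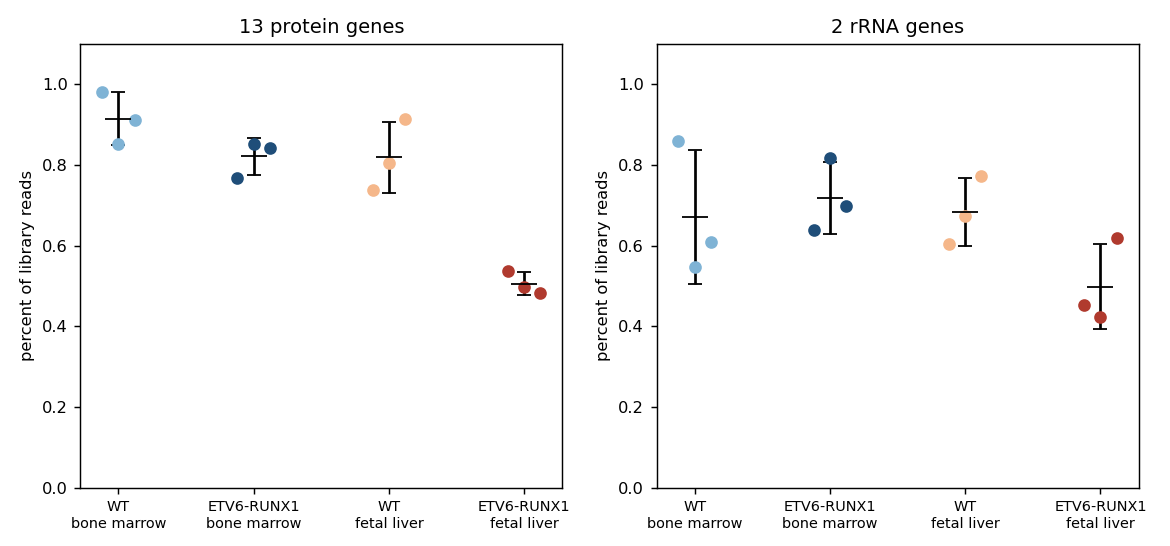
Percent of library reads (y axis) listed at the 13 mitochondrial protein genes (left) and the 2 mitochondrial rRNA genes (right) in the 4 groups. Each point is 1 library, and bars mark the mean and the SD of 3 libraries. The protein share of ETV6-RUNX1 fetal liver, 0.482% to 0.537%, lies under all other libraries, while its rRNA share reaches 0.619%.

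Levels were compared between genes per kilobase of gene, as CPM per kb. In WT fetal liver the order began with mt-Rnr2, the large ribosomal RNA, at 3982 ± 503 CPM per kb, and went on with mt-Nd1 at 2488 ± 291, mt-Cytb at 1791 ± 225 and mt-Co1 at 990.5 ± 188. mt-Nd2 (667 ± 87.7 CPM per kb) and mt-Rnr1, the small ribosomal RNA (569 ± 69.9), came next and overlapped within their SD. mt-Nd4 followed at 381 ± 36.7 CPM per kb, then mt-Nd6 at 294 ± 44.9, mt-Nd5 at 243 ± 14.1 and mt-Atp6 at 239 ± 42.5, and these 3 overlapped within their SD. mt-Co3 and mt-Co2 were at 171 ± 31.8 and 155 ± 35.5 CPM per kb, again within their spread. The lowest protein genes were mt-Nd3 at 26.0 ± 6.14, mt-Atp8 at 21.6 ± 3.09 and mt-Nd4l at 8.42 ± 1.71 CPM per kb. The low end of this order is made of genes with a near-identical nuclear copy or an overlap with another member. mt-Nd1, mt-Cytb and mt-Co1 together held 68.3% to 74.3% of the protein-gene reads of a library.

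**Figure D2:**
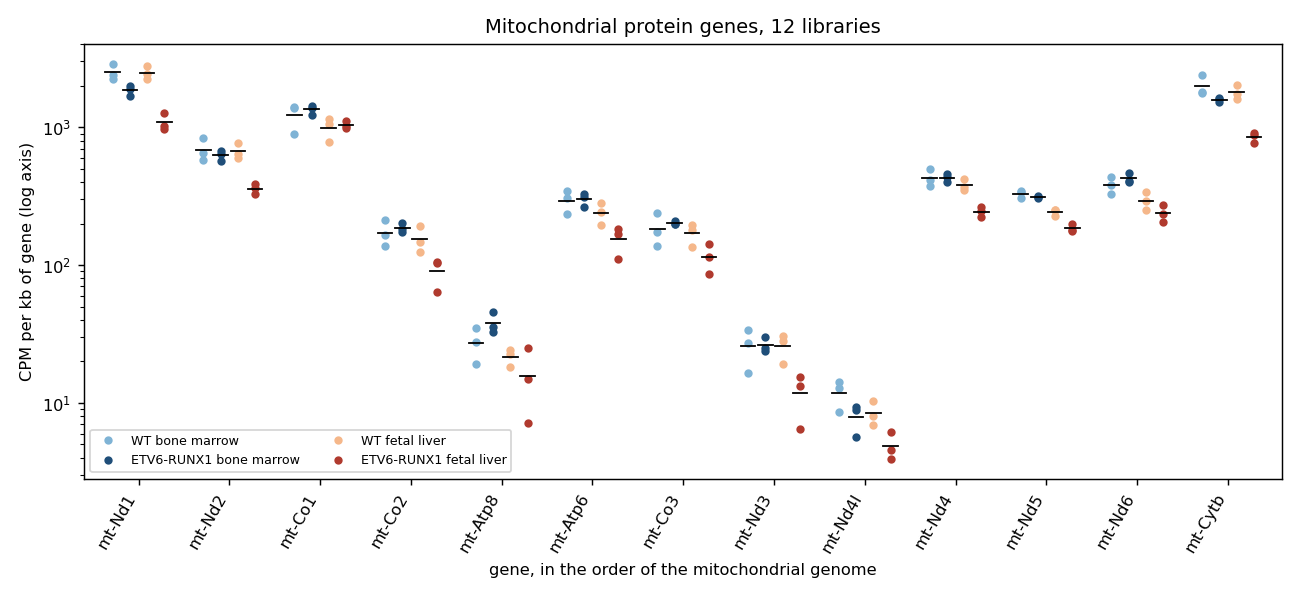
Level of the 13 mitochondrial protein genes as CPM per kb of gene (y axis, log scale) in each of the 12 libraries, with genes in genome order. Points are libraries and black lines are means of 3. The ETV6-RUNX1 fetal liver points lie lowest for mt-Nd1, mt-Nd2, mt-Nd4, mt-Nd5 and mt-Cytb and lie among the other groups for mt-Co1.

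In fetal liver, most mitochondrial mRNAs were lower with ETV6-RUNX1, and mt-Co1 was the protein gene that stood closest to no difference. Of the 13 protein genes, 9 fell, 0 rose and 4 were not called, where a call is a limma adjusted p (Benjamini-Hochberg over 14271 genes) under 0.05. Among all genes tested, 18.3% fell and 43.1% were called in either direction, so calls were common in this comparison. The median log2 difference of the 13 was -0.64, beside 0.078 over all genes tested, and a log2 difference here is one of log2(CPM + 1), which understates the change of low genes. At an unadjusted p under 0.05, 10 of the 13 were lower and 0 higher. The groups did not overlap for 9 of the 13, always with ETV6-RUNX1 lower, and 23.3% of all genes tested had such an arrangement. edgeR and DESeq2 on whole reads recovered from the CPM values called 9 and 10 of the 13 as lower. Of all genes tested they called 3021 and 3074 lower, and 3157 and 3466 higher.

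Complex I, which takes electrons from NADH, has 7 of its subunits encoded here. Positions are those of GENCODE M21 on GRCm38. mt-Nd1 (chrM:2751-3707) was 2128, 2334 and 2679 CPM in WT fetal liver replicates 1 to 3 and 1216, 984 and 923 CPM in ETV6-RUNX1 fetal liver. The highest ETV6-RUNX1 library lay far under the lowest WT library, and mt-Nd1 fell to 0.437 of the WT mean (log2 difference -1.20, SE 0.15, limma adjusted p = 2.63e-05). mt-Nd2 (chrM:3914-4951) was 621, 661 and 795 CPM in WT and 401, 343 and 374 CPM in ETV6-RUNX1 cells, without overlap, and fell to 0.538 of WT (log2 difference -0.89, SE 0.15, limma adjusted p = 0.000298). Both subunits belong to the membrane arm of the complex. mt-Nd4 (chrM:10167-11544), another membrane-arm subunit, was 507, 487 and 583 CPM in WT and 363, 306 and 339 CPM in ETV6-RUNX1 cells (log2 difference -0.64, SE 0.13, limma adjusted p = 0.00145). mt-Nd5 (chrM:11742-13565), which sits at the far end of that arm, was 456, 413 and 458 CPM in WT and 363, 329 and 325 CPM in ETV6-RUNX1 cells (log2 difference -0.38, SE 0.11, limma adjusted p = 0.0111). For both genes the 2 groups did not overlap, and the fall of mt-Nd5 was the smallest among the 9 calls.

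Among the less abundant complex I mRNAs, mt-Nd3 (chrM:9459-9806) was 6.64, 9.75 and 10.7 CPM in WT and 4.62, 2.26 and 5.37 CPM in ETV6-RUNX1 fetal liver (log2 difference -1.01, SE 0.28, limma adjusted p = 0.0106). The groups did not overlap, with ETV6-RUNX1 replicate 2 lowest. Without that library the value was -0.72 (limma adjusted p = 0.0561). mt-Nd4l (chrM:9877-10173) was 2.05, 2.39 and 3.06 CPM in WT and 1.83, 1.36 and 1.17 CPM in ETV6-RUNX1 cells, not called although its groups did not overlap (log2 difference -0.51, SE 0.22, limma adjusted p = 0.0719). mt-Nd6 (chrM:13552-14070), the single protein gene annotated on the minus strand, was 129.9, 151 and 176 CPM in WT and 121, 106 and 141 CPM in ETV6-RUNX1 cells. Its groups overlapped and it was not called (log2 difference -0.31, SE 0.15, limma adjusted p = 0.120). mt-Nd5 and mt-Nd6 share 14 bases on opposite strands, and strand use in counting is not given in the sources used here.

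mt-Cytb (chrM:14145-15288) encodes cytochrome b, the mitochondrially made subunit of complex III. It was 1999, 1819.6 and 2328 CPM in WT and 1042, 997 and 878 CPM in ETV6-RUNX1 fetal liver. All 3 ETV6-RUNX1 libraries lay well under the WT libraries, and mt-Cytb fell to 0.475 of the WT mean (log2 difference -1.07, SE 0.14, limma adjusted p = 5.16e-05). Its aligned pseudogene Gm11410 on chromosome 4, 92.9% identical, was at 2.66, 2.19 and 3.35 CPM in WT and 1.76, 1.11 and 1.68 CPM in ETV6-RUNX1 cells, far under mt-Cytb.

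Of the 3 complex IV subunits, which form the core of cytochrome c oxidase, 2 fell and 1 was not called. mt-Co1 (chrM:5328-6872), the catalytic subunit, was 1204, 1764 and 1623 CPM in WT and 1581, 1709 and 1520.2 CPM in ETV6-RUNX1 fetal liver. The groups overlapped, with WT replicate 1 lowest of the 6, and no change was called (log2 difference 0.084, SE 0.18, limma adjusted p = 0.737). Dropping WT fetal liver replicate 1 gave -0.079 (limma adjusted p = 0.768), and edgeR and DESeq2 gave -0.033 and -0.011, so its sign depends on the setting. mt-Co2 (chrM:7013-7696), which holds the site that accepts electrons from cytochrome c, was 84.7, 101 and 132 CPM in WT and 71.3, 43.3 and 72.0 CPM in ETV6-RUNX1 cells (log2 difference -0.77, SE 0.21, limma adjusted p = 0.00987). mt-Co2 groups did not overlap, and ETV6-RUNX1 replicate 2 was lowest. Without that library mt-Co2 had a value of -0.54 (limma adjusted p = 0.0533), and without WT replicate 3 a value of -0.60 (limma adjusted p = 0.0551).

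mt-Co3 (chrM:8607-9390), the third core subunit, was 106, 141 and 154 CPM in WT and 90.3, 67.0 and 111 CPM in ETV6-RUNX1 fetal liver. Its groups overlapped, since ETV6-RUNX1 replicate 3 lay above WT replicate 1, and its call (log2 difference -0.59, SE 0.21, limma adjusted p = 0.0369) was the weakest of the 9. The call was lost without ETV6-RUNX1 replicate 1 or 2 or WT replicate 2 or 3, with limma adjusted p values of 0.0707, 0.171, 0.105 and 0.138. For ATP synthase, mt-Atp6 (chrM:7927-8607) encodes part of the proton channel. mt-Atp6 was 133, 165 and 191 CPM in WT and 114, 75.2 and 125 CPM in ETV6-RUNX1 cells, without overlap (log2 difference -0.65, SE 0.20, limma adjusted p = 0.0175). Its call was lost without ETV6-RUNX1 replicate 2 or WT replicate 2 or 3 (limma adjusted p = 0.0929, 0.0503 and 0.0816). mt-Atp8 (chrM:7766-7969), a small subunit of the same enzyme, was 3.72, 4.58 and 4.95 CPM in WT and 3.03, 1.45 and 5.10 CPM in ETV6-RUNX1 cells. ETV6-RUNX1 replicate 3 was above all WT libraries, the groups overlapped, and mt-Atp8 was not called (log2 difference -0.46, SE 0.29, limma adjusted p = 0.221).

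The fetal liver result was set beside the pseudogene share, whose mean was lower in ETV6-RUNX1 cells. Over all 14271 genes tested, calls went from 6151 (2607 of them lower) to 4955 (2287 lower) with that share as a covariate. In that setting 5 protein genes were called, all lower: mt-Nd1, mt-Nd2, mt-Nd4, mt-Nd5 and mt-Cytb. mt-Nd1 was then -1.10 (limma adjusted p = 0.000309) and mt-Cytb -0.97 (limma adjusted p = 0.000548). The calls of 4 genes were lost, with mt-Nd3 at -0.55 (limma adjusted p = 0.126), mt-Co2 at -0.41 (limma adjusted p = 0.108), mt-Co3 at -0.17 (limma adjusted p = 0.414) and mt-Atp6 at -0.34 (limma adjusted p = 0.178). Those 4 genes, and also mt-Nd4, which kept its call, are among the 7 with a near-identical nuclear copy. The 5 genes that kept the call did so under each of the 25 alternatives run.

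Neither mitochondrial rRNA was called in fetal liver by limma. mt-Rnr1 (chrM:70-1024) was 466, 583 and 581 CPM in WT and 354, 288 and 543 CPM in ETV6-RUNX1 cells, with ETV6-RUNX1 replicate 3 among the WT values (log2 difference -0.50, SE 0.23, limma adjusted p = 0.0865). mt-Rnr2 (chrM:1094-2675) was 5584, 6159 and 7155 CPM in WT and 4182, 3949.5 and 5647 CPM in ETV6-RUNX1 cells, again with replicate 3 of ETV6-RUNX1 inside the WT range (log2 difference -0.47, SE 0.19, limma adjusted p = 0.0665). Both had an unadjusted p under 0.05, and mt-Rnr2 was called under 7 of 25 alternatives and mt-Rnr1 under 3. The ratio of rRNA to protein-gene reads was 0.820 to 0.846 in WT fetal liver. It was 0.844 and 0.854 in ETV6-RUNX1 fetal liver replicates 1 and 2 and 1.28 in replicate 3.

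The tRNA genes gave few reads. Of the 22, which are 59 to 75 bases long, 5 passed the filter of at least 1 CPM in at least 3 of 12 libraries and 17 did not. Reads at a tRNA gene can come from longer RNAs that run across it, and the table does not separate these from mature tRNA. mt-Tw, mt-Td, mt-Tg, mt-Ts2 and mt-Tl2 had at most 3 reads in every library. mt-Tc (0.197 to 1.51 CPM), mt-Te (0.215 to 1.22), mt-Tm (0.0996 to 0.587), mt-Ta (0 to 0.648) and mt-Tn (0.0571 to 0.374) were under the filter, as were mt-Tf, mt-Ti, mt-Ty, mt-Tk, mt-Tr, mt-Th and mt-Tt, which did not exceed 0.270 CPM. The 5 tRNAs on which the results turn are printed 5′ to 3′ as DNA, with the anticodon in capitals. The first 3 are annotated on the minus strand and the other 2 on the plus strand.
mt-Tq, tRNA for glutamine, chrM:3772-3842: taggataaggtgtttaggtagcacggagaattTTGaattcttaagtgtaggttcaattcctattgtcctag
mt-Ts1, tRNA for serine, chrM:6870-6938: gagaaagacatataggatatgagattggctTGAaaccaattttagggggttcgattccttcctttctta
mt-Tp, tRNA for proline, chrM:15356-15422: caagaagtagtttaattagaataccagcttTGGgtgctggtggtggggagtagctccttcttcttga
mt-Tl1, tRNA for leucine, chrM:2676-2750: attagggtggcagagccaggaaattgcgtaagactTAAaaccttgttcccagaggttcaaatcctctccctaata
mt-Tv, tRNA for valine, chrM:1025-1093: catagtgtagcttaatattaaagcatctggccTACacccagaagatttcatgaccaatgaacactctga
mt-Tv and mt-Tl1 flank mt-Rnr2 on the same strand, and mt-Tl1 ends where mt-Nd1 begins. mt-Ts1 shares 3 bases with the end of mt-Co1 on the opposite strand, and mt-Tq 3 bases with mt-Ti.

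In fetal liver, mt-Tl1 was 1.02, 0.653 and 0.915 CPM in WT and 0.525, 0.0898 and 0.180 CPM in ETV6-RUNX1 cells. The groups did not overlap and mt-Tl1 fell to 0.308 of the WT mean (log2 difference -0.57, SE 0.22, limma adjusted p = 0.0471), the 1 RNA gene called in this comparison. Its call held under 15 of 24 alternatives (adjusted p 0.00808 to 0.145 over them). It was lost without ETV6-RUNX1 fetal liver replicate 2 or 3, each WT fetal liver replicate, or WT bone marrow replicate 2, with log2 differences of -0.47, -0.52, -0.51, -0.65, -0.54 and -0.57. With the pseudogene share as a covariate it was lost too, at -0.54 (limma adjusted p = 0.139), and mt-Tq was called higher instead, at 1.18 (limma adjusted p = 0.0124). mt-Tv was 1.73, 0.803 and 1.01 CPM in WT and 0.882, 0.449 and 0.540 CPM in ETV6-RUNX1 cells and was not called (log2 difference -0.41, SE 0.22, limma adjusted p = 0.143). mt-Tq was 1.66, 3.46 and 2.93 CPM in WT and 3.13, 2.75 and 10.4 CPM in ETV6-RUNX1 fetal liver, where replicate 3 stood apart from the other 2 (log2 difference 0.64, SE 0.34, limma adjusted p = 0.144). The same library was highest for mt-Ts1, which was 0.259, 0.903 and 0.977 CPM in WT and 0.987, 0.592 and 2.34 CPM in ETV6-RUNX1 cells (log2 difference 0.39, SE 0.26, limma adjusted p = 0.247). mt-Tp was 9.77, 16.4 and 16.7 CPM in WT and 10.4, 7.38 and 12.4 CPM in ETV6-RUNX1 cells, with overlap (log2 difference -0.46, SE 0.32, limma adjusted p = 0.261).

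**Figure D3:**
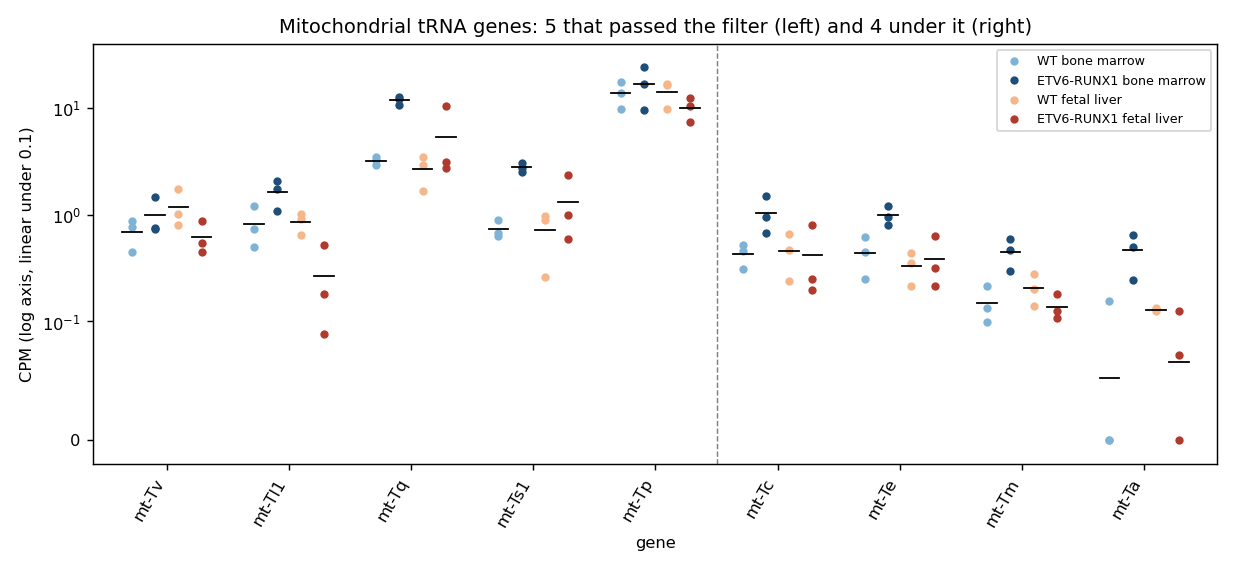
CPM of 9 mitochondrial tRNA genes (y axis, log scale above 0.1 and linear below) in the 12 libraries. Points are libraries, black lines are means of 3, and a dashed line parts the 5 genes that passed the filter from 4 under it. The ETV6-RUNX1 bone marrow points of mt-Tq and mt-Ts1 stand above the WT bone marrow points, and ETV6-RUNX1 fetal liver replicate 3 reaches 10.4 CPM at mt-Tq.

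In bone marrow, no mitochondrial protein gene was called between the genotypes, while the tRNA genes mt-Tq and mt-Ts1 rose with ETV6-RUNX1. The count for proteins was 0 of 13 by limma, beside 19.4% of all genes called, with 2 of 13 lower at an unadjusted p under 0.05. edgeR called 1 of the 13 (mt-Nd1) and DESeq2 called 2. Their log2 differences ran from -0.43 to 0.42 with a median of 0.053, beside 0.13 over all genes. Scaling mattered for all genes here: 2059 genes rose and 704 fell on the deposited scale, against 1432 and 1398 with median-of-ratios scaling, which moved the median of all genes to -0.001. mt-Nd1 was 2762, 2142 and 2304 CPM in WT and 1608, 1908 and 1815 CPM in ETV6-RUNX1 bone marrow, without overlap, and missed the threshold (log2 difference -0.43, SE 0.15, limma adjusted p = 0.0576). It passed under 4 of 25 alternatives. mt-Cytb was 2727, 2041 and 2057 CPM in WT and 1734, 1828 and 1868 CPM in ETV6-RUNX1 cells, also without overlap (log2 difference -0.32, SE 0.14, limma adjusted p = 0.137). Those 2 of 13 were without overlap and lower, beside 10.9% of all genes tested, and the other 11 overlapped. mt-Co1 was 1378, 2129 and 2178 CPM in WT, with replicate 1 apart from the other 2, and 1907, 2144 and 2214 CPM in ETV6-RUNX1 cells (log2 difference 0.17, SE 0.18, limma adjusted p = 0.551). Dropping WT replicate 1 turned the sign of mt-Co1, to -0.047 (limma adjusted p = 0.873). The rRNA genes mt-Rnr1 and mt-Rnr2 were not called, at 0.063 (SE 0.23, limma adjusted p = 0.868) and 0.12 (SE 0.19, limma adjusted p = 0.696), and both turned negative without WT replicate 2, to -0.13 and -0.0089.

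mt-Tq was 3.24, 2.90 and 3.46 CPM in WT and 12.3, 10.8 and 12.8 CPM in ETV6-RUNX1 bone marrow. In this comparison 14.4% of all genes tested rose. Every ETV6-RUNX1 library lay above 10 CPM and every WT library under 4 CPM, so that mt-Tq rose 3.74-fold (log2 difference 1.62, SE 0.34, limma adjusted p = 0.00552). mt-Ts1 was 0.629, 0.682 and 0.897 CPM in WT and 3.08, 2.75 and 2.51 CPM in ETV6-RUNX1 cells, without overlap, and rose 3.78-fold (log2 difference 1.12, SE 0.26, limma adjusted p = 0.00920). Both calls held under every alternative in which the gene was tested, 25 for mt-Tq and 24 for mt-Ts1. However, mt-Ts1 reached 1 CPM only in the ETV6-RUNX1 bone marrow libraries and in ETV6-RUNX1 fetal liver replicate 3. It thus passed the filter only through the group where it was high. mt-Tp, the most abundant tRNA gene on the minus strand, was not called, at 13.9, 9.80 and 17.8 CPM in WT and 16.8, 9.55 and 24.3 CPM in ETV6-RUNX1 cells (log2 difference 0.22, SE 0.32, limma adjusted p = 0.659), and its sign turned without ETV6-RUNX1 replicate 3, to -0.075. Under the filter, mt-Tc was 0.457, 0.312 and 0.523 CPM in WT and 1.51, 0.680 and 0.959 CPM in ETV6-RUNX1 bone marrow, and mt-Te 0.248, 0.623 and 0.448 CPM in WT and 1.22, 0.958 and 0.805 CPM in ETV6-RUNX1 cells. mt-Ta, also on the minus strand, was 0, 0.156 and 0 CPM in WT and 0.648, 0.247 and 0.495 CPM in ETV6-RUNX1 cells, and mt-Tm, on the plus strand, 0.133, 0.214 and 0.0996 CPM in WT and 0.297, 0.587 and 0.464 CPM in ETV6-RUNX1 cells. These 4 did not overlap between the genotypes. Of all 17 tRNA genes under the filter, 7 were without overlap and higher with ETV6-RUNX1, 1 was without overlap and lower (mt-Ty) and 9 overlapped. Of all genes tested, 23.6% were without overlap and higher. Those genes passed the filter, and the share among genes under it was not computed, so the 2 counts are not alike. Most of the 17 tRNA genes rest on few reads. With every gene that had reads in the test, 5 RNA genes were called in bone marrow, with mt-Tq, mt-Ts1, mt-Tm and mt-Ta higher and mt-Ty, which did not exceed 0.125 CPM, lower. Summed over the 7 minus-strand tRNA genes other than mt-Tp, the level was 5.15 ± 0.597 CPM in WT and 17.3 ± 1.63 CPM in ETV6-RUNX1 bone marrow (SD, n = 3), and 4.57 ± 1.70 and 7.84 ± 5.66 CPM in fetal liver. mt-Tq makes up most of that sum. With mt-Tp, the sum over all 8 minus-strand genes was 18.95 ± 4.46 and 34.2 ± 8.44 CPM in bone marrow, and in fetal liver the order of the means turned, at 18.9 ± 5.62 and 17.9 ± 7.97 CPM. The 14 plus-strand tRNA genes summed to 2.01 ± 0.627 and 3.78 ± 1.03 CPM in bone marrow and to 2.67 ± 0.701 and 1.25 ± 0.417 CPM in fetal liver. Among the plus-strand genes, mt-Tl1 was 1.22, 0.740 and 0.498 CPM in WT and 2.08, 1.73 and 1.08 CPM in ETV6-RUNX1 cells in bone marrow (log2 difference 0.53, SE 0.22, limma adjusted p = 0.0979), and mt-Tv was 0.762, 0.876 and 0.448 CPM in WT and 0.756, 1.48 and 0.743 CPM in ETV6-RUNX1 cells (log2 difference 0.22, SE 0.22, limma adjusted p = 0.502).

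**Figure D4:**
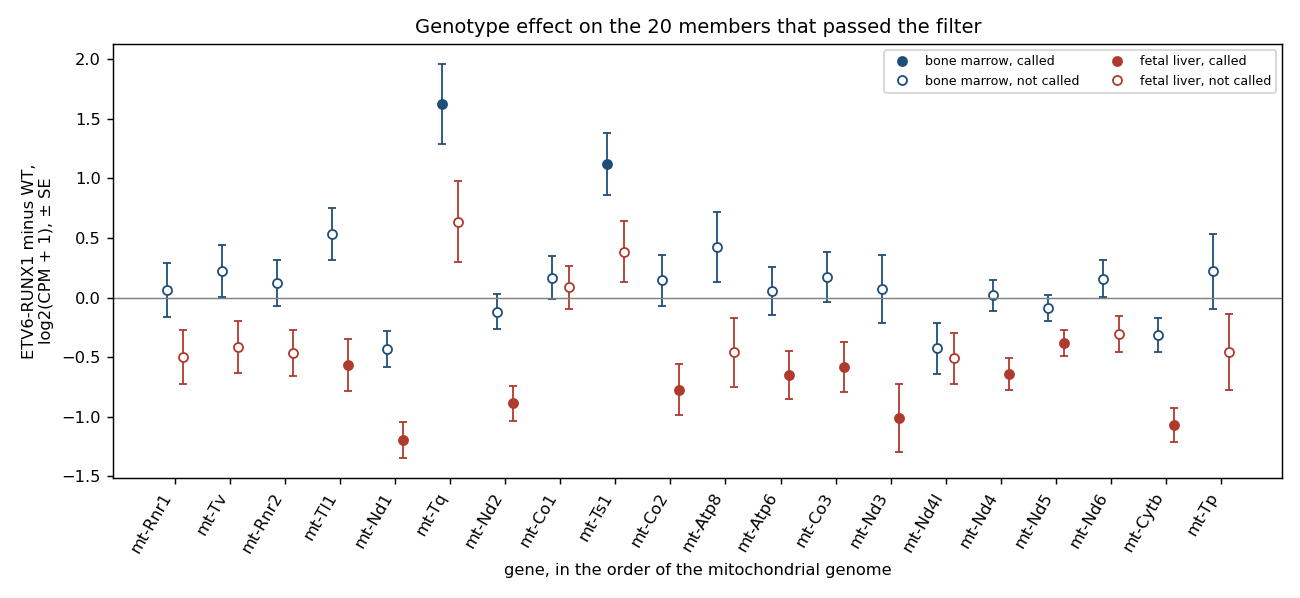
Genotype effect (ETV6-RUNX1 minus WT, log2(CPM + 1), y axis) of the 20 members that passed the filter, in bone marrow (blue) and fetal liver (red), with bars for 1 SE. Filled points are calls at a limma adjusted p under 0.05. The protein genes lie between -1.20 and 0.084 in fetal liver and between -0.43 and 0.42 in bone marrow, and mt-Tq and mt-Ts1 stand highest, in bone marrow.

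Whether the genotype effect differed between fetal liver and bone marrow was tested with the interaction term, whose sign is negative where the effect was lower in fetal liver. All 13 protein genes had a negative value, with a median of -0.75 beside -0.053 over all genes. Of the 13, 4 were called, all negative, where 9.19% of all genes were called, 3.62% negative and 5.56% positive. The calls were mt-Nd1 at -0.77 (SE 0.21, limma adjusted p = 0.0372), mt-Nd2 at -0.77 (SE 0.21, limma adjusted p = 0.0349), mt-Nd4 at -0.66 (SE 0.19, limma adjusted p = 0.0404) and mt-Cytb at -0.75 (SE 0.20, limma adjusted p = 0.0342). mt-Tl1 was the single RNA gene called, at -1.10 (SE 0.31, limma adjusted p = 0.0382), but it passed the filter only with the ETV6-RUNX1 bone marrow libraries, where its mean was highest. These calls were not stable: 0 to 7 protein genes were called when single libraries were left out, and edgeR and DESeq2 called 0 of the 13. At an unadjusted p under 0.05 the limma count was 9 of 13. Dropping replicate 2 or 3 of WT bone marrow, ETV6-RUNX1 bone marrow or ETV6-RUNX1 fetal liver, or WT fetal liver replicate 3, gave 0, and dropping WT bone marrow replicate 1 gave 7. Dropping replicate 1 of ETV6-RUNX1 bone marrow or of WT fetal liver gave 2, and dropping ETV6-RUNX1 fetal liver replicate 1 or WT fetal liver replicate 2 gave 1. The count was also 0 with the pseudogene share as a covariate. Over all 14271 genes tested, 1311 were called with all libraries, 543 with that covariate and 2332 without WT bone marrow replicate 1.

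Between the sources, 1 mitochondrial mRNA was called in WT cells, and most were lower in fetal liver than in bone marrow in ETV6-RUNX1 cells. These comparisons use the same libraries as those above. In WT cells 1 of 13 protein genes was called, beside 11.1% of all genes (7.77% lower and 3.38% higher in fetal liver): mt-Nd5 was 456, 413 and 458 CPM in fetal liver and 625, 558 and 622 CPM in bone marrow (log2 difference -0.44, SE 0.11, limma adjusted p = 0.0156). Dropping WT bone marrow replicate 3 or WT fetal liver replicate 2 ended that call (limma adjusted p = 0.0570 and 0.0750). It was also lost with edgeR, DESeq2, median-of-ratios scaling and only the 6 WT libraries, and held under 19 of 25 alternatives. Of the WT RNA genes limma called 0 of 7, with 0 at an unadjusted p under 0.05, and edgeR and DESeq2 called 0 as well. In ETV6-RUNX1 cells 11 of 13 protein genes fell from bone marrow to fetal liver, where 28.6% of all genes were called, 18.2% lower and 10.4% higher. The median of the 13 was -0.84, beside -0.16 over all genes. The lean of all genes depended on scaling. On the deposited scale 1484 were higher and 2604 lower in fetal liver, against 2064 and 1451 with median-of-ratios scaling, where their median was -0.0002. edgeR called 1878 higher and 1366 lower, and DESeq2 2103 and 1652. For 12 of the 13 the groups did not overlap, beside 27.8% of all genes in that direction. The lowest value was that of mt-Atp8, -1.14 (SE 0.29, limma adjusted p = 0.00990), with 3.03, 1.45 and 5.10 CPM in fetal liver and 9.32, 7.20 and 6.62 CPM in bone marrow. mt-Co2 followed at -1.06 (SE 0.21, limma adjusted p = 0.00222) and mt-Nd3 at -1.05 (SE 0.28, limma adjusted p = 0.0137), a call that was lost without ETV6-RUNX1 bone marrow replicate 1 or fetal liver replicate 2 (limma adjusted p = 0.0530 and 0.0665).

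The other calls in ETV6-RUNX1 cells were mt-Atp6 at -0.995 (SE 0.20, limma adjusted p = 0.00214), mt-Cytb at -0.90 (SE 0.14, limma adjusted p = 0.000370), mt-Nd6 at -0.85 (SE 0.15, limma adjusted p = 0.000979) and mt-Co3 at -0.84 (SE 0.21, limma adjusted p = 0.00876). Among the remaining complex I genes, mt-Nd4 was -0.82 (SE 0.13, limma adjusted p = 0.000373), mt-Nd2 -0.80 (SE 0.15, limma adjusted p = 0.00116), mt-Nd1 -0.78 (SE 0.15, limma adjusted p = 0.00157) and mt-Nd5 -0.74 (SE 0.11, limma adjusted p = 0.000176). mt-Nd4l, at -0.45 (SE 0.22, limma adjusted p = 0.140), and mt-Co1, at -0.38 (SE 0.18, limma adjusted p = 0.136), were not called. With the pseudogene share as a covariate only mt-Nd4, mt-Nd5 and mt-Cytb kept the call among the proteins. Over all genes tested, that setting called 3203, of them 2221 lower, against 4088 and 2604 without the covariate. Of the RNA genes, mt-Tl1 fell to 0.162 of the bone marrow mean, -1.05 (SE 0.22, limma adjusted p = 0.00248), under all 24 alternatives in which it was tested. It reached 1 CPM only in the ETV6-RUNX1 bone marrow libraries, WT bone marrow replicate 1 and WT fetal liver replicate 1. mt-Tl1 thus passed the filter only with the group where it was high, as did mt-Ts1. In ETV6-RUNX1 fetal liver mt-Tl1 was 0.525, 0.0898 and 0.180 CPM, which rests on few reads. mt-Tq was called at -1.21 (SE 0.34, limma adjusted p = 0.0163), mt-Ts1 at -0.78 (SE 0.26, limma adjusted p = 0.0355) and mt-Rnr2 at -0.55 (SE 0.19, limma adjusted p = 0.0471). Those 3 calls held under 19 of 25, 11 of 24 and 9 of 25 alternatives. Leaving out ETV6-RUNX1 fetal liver replicate 1 or 2 ended each of the 3, with limma adjusted p values of 0.0786 and 0.0784 for mt-Tq. Without any 1 ETV6-RUNX1 bone marrow library, mt-Ts1 and mt-Rnr2 also lost their calls, and mt-Rnr2 did so without WT bone marrow replicate 3 or any 1 WT fetal liver library.

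The makeup of the mitochondrial mRNA pool is described by shares, without a test. mt-Co1 held 16.3 to 21.9% of the reads of the 13 protein genes in WT fetal liver and 29.4 to 34.4% in ETV6-RUNX1 fetal liver, without overlap. In bone marrow its share was 14.03 to 24.96% in WT and 24.8 to 26.3% in ETV6-RUNX1 cells, with overlap, and WT replicate 1 was lowest. mt-Nd1 lay the other way, at 28.8 to 29.3% in WT and 19.2 to 22.6% in ETV6-RUNX1 fetal liver. In bone marrow mt-Nd1 held 25.1 to 28.1% in WT and 20.9 to 22.4% in ETV6-RUNX1 cells, without overlap in either source. The ratio of mt-Co1 to mt-Cytb reads was 0.756 ± 0.190 in WT and 1.65 ± 0.119 in ETV6-RUNX1 fetal liver, and 0.869 ± 0.315 and 1.15 ± 0.0460 in bone marrow. In fetal liver it ran from 0.602 to 0.969 and from 1.52 to 1.73, and in bone marrow from 0.505 to 1.06 and from 1.1004 to 1.19. In each source the ETV6-RUNX1 libraries lay above the WT libraries. These ratios were formed after the values were seen. The ratio of mt-Rnr2 to mt-Rnr1 was 10.6 to 12.3 and 10.4 to 13.7 in fetal liver, with overlap.

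The nuclear copies were listed with reads of their own. For mt-Nd3 the copy Gm28438 held 85.4% of the summed mean in WT and 80.9% in ETV6-RUNX1 fetal liver. Gm28438 itself was 44.9, 49.2 and 64.5 CPM in WT and 17.9, 12.7 and 21.5 CPM in ETV6-RUNX1 fetal liver, without overlap (log2 difference -1.57, SE 0.24, limma adjusted p = 0.000165). The sum of mt-Nd3 and Gm28438 was 61.9 ± 12.1 and 21.4 ± 6.03 CPM. For mt-Co2, mt-Atp6 and mt-Co3, which were 100% identical to their copies over the aligned bases, the copies held 50.5%, 51.4% and 48.9% of the sum in WT fetal liver. In ETV6-RUNX1 bone marrow these shares were 57.4%, 59.7% and 54.6%. The copy of mt-Nd4l held 66.2% in WT fetal liver, and those of mt-Co1 and mt-Nd4 held 5.43% and 3.44%. With each copy added to its gene, an alternative chosen after seeing the data, 8 of 13 protein genes were called lower in fetal liver.

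In that setting mt-Nd3 was -1.51 (limma adjusted p = 0.000238) in fetal liver and mt-Co2 -0.62 (limma adjusted p = 0.0449), while mt-Atp6, at -0.52 (limma adjusted p = 0.0771), and mt-Co3, at -0.51 (limma adjusted p = 0.0814), lost their calls. Gm29216, the copy of the end of mt-Co1, was 81.9, 120.0 and 152 CPM in WT and 214, 205 and 196 CPM in ETV6-RUNX1 bone marrow, without overlap (log2 difference 0.84, SE 0.27, limma adjusted p = 0.0414). That call was lost under 11 of 24 alternatives, among them each bone marrow library left out except WT replicate 3 and ETV6-RUNX1 fetal liver replicate 1 left out (limma adjusted p up to 0.139). In fetal liver Gm29216 was 53.9, 112 and 97.8 CPM in WT and 130.3, 103 and 175 CPM in ETV6-RUNX1 cells, with overlap (log2 difference 0.66, SE 0.27, limma adjusted p = 0.0603). Gm28439, the copy of the start of mt-Nd4, was not called in fetal liver (log2 difference -0.066, SE 0.22, limma adjusted p = 0.830), where mt-Nd4 fell. A more distant copy of mt-Co2, Gm13341 on chromosome 2 with 95.9% identity, fell in fetal liver (log2 difference -0.90, SE 0.19, limma adjusted p = 0.00180), with 50.1, 52.2 and 68.9 CPM in WT and 34.5, 25.9 and 29.3 CPM in ETV6-RUNX1 cells.

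**Figure D5:**
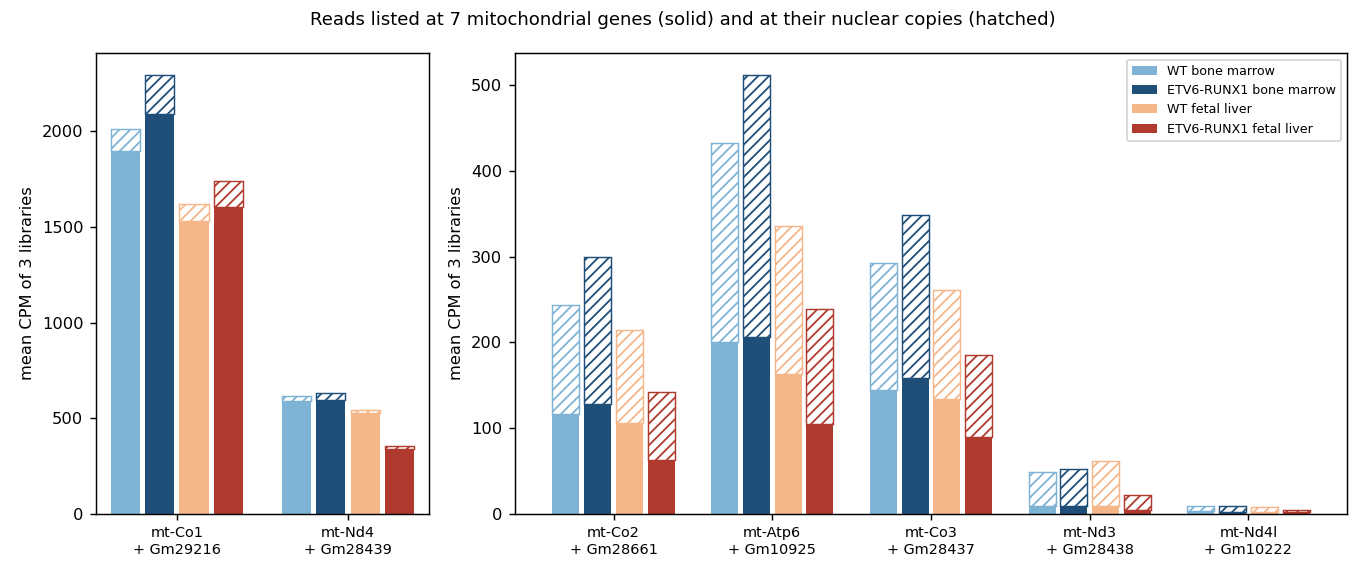
Mean CPM of 3 libraries (y axis, separate scales left and right) at 7 mitochondrial genes (solid) with the near-identical nuclear copy stacked on top (hatched), by group. For mt-Co2, mt-Atp6 and mt-Co3 the copy holds about as many reads as the gene, for mt-Nd3 it holds most of the sum, 80.9% to 85.4% by group, and for mt-Co1 and mt-Nd4 it is a small part.

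The nuclear genes that serve the mitochondrial genome were read from 7 lists, with calls by limma unless another tool is named. Over all genes tested, 18.3% fell and 24.8% rose in fetal liver, and 4.93% fell and 14.4% rose in bone marrow, by limma. Of the 14271 genes, edgeR called 3021 lower and 3157 higher in fetal liver and DESeq2 3074 and 3466, against 2607 and 3544 by limma. In bone marrow edgeR called 1355 lower and 1384 higher and DESeq2 1583 and 1714, against 704 and 2059 by limma. Of 11 genes of mitochondrial transcription, 3 fell and 0 rose in fetal liver with ETV6-RUNX1, and the list median was -0.37. At an unadjusted p under 0.05, 6 of the 11 were lower and 0 higher, and edgeR and DESeq2 called 5 and 6 lower and 0 higher. Mrpl12, a ribosomal protein that also binds the mitochondrial RNA polymerase, was 44.6 ± 2.81 against 102 ± 10.6 CPM (log2 difference -1.17, SE 0.16, limma adjusted p = 5.76e-05). Tfb2m, which helps the polymerase open promoters, was 14.4 ± 2.05 against 27.1 ± 1.61 CPM (log2 difference -0.88, SE 0.16, limma adjusted p = 0.000509). Tfam, which packages mitochondrial DNA and starts transcription, was 49.0 ± 4.48 against 82.0 ± 7.24 CPM (log2 difference -0.73, SE 0.15, limma adjusted p = 0.00145). Polrmt, the polymerase itself, was not called (16.9 ± 1.56 against 18.97 ± 3.70 CPM, limma adjusted p = 0.646). In bone marrow limma called 0 of the 11, with 3 at an unadjusted p under 0.05, 1 of them higher, while edgeR and DESeq2 called 1 and 2 as lower. Of 23 genes of mitochondrial RNA processing and decay, 10 fell and 0 rose in fetal liver, with a median of -0.43. At an unadjusted p under 0.05, 11 of the 23 were lower and 2 higher, edgeR called 11 lower and 0 higher, and DESeq2 10 lower and 1 higher. Fastkd2, which binds and stabilizes mitochondrial RNAs, was 35.8 ± 4.45 against 63.0 ± 4.75 CPM (log2 difference -0.80, SE 0.15, limma adjusted p = 0.000694). Trmt10c, a subunit of the mitochondrial RNase P that cuts the 5′ ends of tRNAs, was 41.1 ± 2.70 against 66.9 ± 4.88 CPM (log2 difference -0.69, SE 0.15, limma adjusted p = 0.00216). Ptcd2 was 63.5 ± 6.96 against 102 ± 4.395 CPM (log2 difference -0.67, SE 0.14, limma adjusted p = 0.00163) and Ptcd3, a protein of the mitochondrial ribosome, 58.3 ± 11.02 against 96.3 ± 11.1 CPM (log2 difference -0.72, SE 0.16, limma adjusted p = 0.00277).

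Of 17 genes of mitochondrial DNA maintenance, 5 fell and 3 rose in fetal liver, with a median of 0.036, opposite in sign to the larger of the 2 counts. Of all genes tested, 18.3% fell and 24.8% rose there. The 3 that rose were not among the calls with the smallest p and are not named here. Mgme1, a mitochondrial exonuclease, was 38.1 ± 3.19 against 72.5 ± 3.90 CPM (log2 difference -0.91, SE 0.15, limma adjusted p = 0.000332). Ssbp1, the mitochondrial single-strand DNA binding protein, was 68.5 ± 12.6 against 121 ± 18.8 CPM (log2 difference -0.81, SE 0.16, limma adjusted p = 0.000991). Top1mt, the mitochondrial topoisomerase, was 6.28 ± 1.33 against 13.7 ± 2.20 CPM (log2 difference -1.02, SE 0.21, limma adjusted p = 0.00166). Among 34 genes of tRNA charging and modification, 16 fell and 0 rose in fetal liver, with a median of -0.47. Before adjustment 18 were lower and 0 higher at p under 0.05, and edgeR and DESeq2 each called 19 lower and 0 higher. Pus1, a pseudouridine synthase, was 17.6 ± 0.706 against 30.5 ± 1.92 CPM (log2 difference -0.76, SE 0.14, limma adjusted p = 0.000590). Tars2, which charges the threonine tRNA, was 61.4 ± 8.80 against 99.7 ± 7.98 CPM (log2 difference -0.70, SE 0.13, limma adjusted p = 0.000764). Nsun2, a tRNA methyltransferase that also works outside mitochondria, was 34.2 ± 5.06 against 69.9 ± 11.3 CPM (log2 difference -1.01, SE 0.19, limma adjusted p = 0.000680). The list for translation of mitochondrial mRNA had 17 genes, of which 8 fell and 0 rose, with a median of -0.39. Before adjustment 11 were lower and 0 higher at p under 0.05, and edgeR and DESeq2 each called 10 lower and 0 higher. Tufm, the mitochondrial elongation factor Tu, was 58.2 ± 9.34 against 137 ± 10.95 CPM (log2 difference -1.23, SE 0.14, limma adjusted p = 1.07e-05), and its exchange factor Tsfm 39.3 ± 2.07 against 79.5 ± 11.6 CPM (log2 difference -0.99, SE 0.15, limma adjusted p = 0.000139). The recycling factor Mrrf was 28.1 ± 0.978 against 47.8 ± 2.16 CPM (log2 difference -0.74, SE 0.15, limma adjusted p = 0.00139) and the elongation factor Gfm1 41.2 ± 6.51 against 64.3 ± 6.79 CPM (log2 difference -0.64, SE 0.15, limma adjusted p = 0.00416). Each gene named above in these fetal liver lists as lower was called under all 25 alternatives. Less stable were Twnk of the DNA maintenance list, at -0.92 (SE 0.26, limma adjusted p = 0.0114), and Lrpprc of the RNA processing list, at -0.58 (SE 0.17, limma adjusted p = 0.0161). Twnk lost its call without ETV6-RUNX1 fetal liver replicate 3 or WT fetal liver replicate 2 (limma adjusted p = 0.0549 and 0.05004). Lrpprc lost its call without ETV6-RUNX1 fetal liver replicate 3 or WT fetal liver replicate 1 (limma adjusted p = 0.0602 and 0.0556). Gfm1, Mgme1, Mrpl12, Mrrf, Nsun2, Top1mt, Pus1, Tsfm and Twnk share 1.43% to 30.1% of their exonic bases with a gene on the opposite strand, so their values are uncertain if strand was not used in counting.

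In bone marrow the RNA processing list had 6 genes that fell and 1 that rose of 23, tRNA charging and modification 4 and 0 of 34, translation 1 and 0 of 17, and DNA maintenance 1 and 0 of 17. Of the 34 genes of tRNA charging and modification 3 were higher at an unadjusted p under 0.05, and of both lists of 17, 0 were. DESeq2 called 2 of the 34 higher and edgeR 0, and both called 0 higher in the other 2 lists. For tRNA charging and modification edgeR and DESeq2 called 9 and 10 lower, for translation 3 and 4. Over all 14271 genes tested they called 1355 and 1583 lower in bone marrow, more than the 704 of limma. The interaction term, the test of the difference between sources, called Mrpl12 of the 11 transcription genes at -1.12 (SE 0.23, limma adjusted p = 0.00755), and Tsfm of the 17 translation genes at -0.90 (SE 0.21, limma adjusted p = 0.0175). It called Pus1 and Nsun2 of the 34 genes of tRNA charging and modification, at -0.82 (SE 0.20, limma adjusted p = 0.0189) and -1.001 (SE 0.26, limma adjusted p = 0.0303). Over all genes tested, 3.62% were called negative for the interaction and 9.19% in either direction, and 2 of 34 is near these shares. Without WT bone marrow replicate 2 the calls of Pus1, Nsun2 and Tsfm were lost (limma adjusted p = 0.0505, 0.0850 and 0.0521). Tsfm also lost its call without WT fetal liver replicate 2 or 3, and Nsun2 without WT fetal liver replicate 1 or 2, ETV6-RUNX1 bone marrow replicate 1 or ETV6-RUNX1 fetal liver replicate 2, with limma adjusted p values up to 0.0542 and 0.0799. With the pseudogene share as a covariate only Pus1 of these 4 kept the call. For the interaction, limma called 0 of the 23 RNA processing genes and 0 of the 17 DNA maintenance genes, each with 2 at an unadjusted p under 0.05. edgeR called 0 of both and DESeq2 called 0 and 1. Tufm was 71.8 ± 5.17 against 113 ± 8.995 CPM (log2 difference -0.65, SE 0.14, limma adjusted p = 0.00619) and Trmt5, a tRNA methyltransferase, 14.3 ± 0.793 against 25.8 ± 0.877 CPM (log2 difference -0.81, SE 0.15, limma adjusted p = 0.00249), both under all 25 alternatives. Of 12 regulators of mitochondrial biogenesis that passed the filter, 2 fell in fetal liver and 1 rose in bone marrow. Of all genes tested, 18.3% fell in fetal liver and 14.4% rose in bone marrow, so neither count stood above that share. The list medians were 0.046 in fetal liver and 0.15 in bone marrow, beside 0.078 and 0.13 over all genes. The gene that rose was Esrra, a nuclear receptor that drives genes of oxidative metabolism, at 4.27 ± 0.498 against 1.61 ± 0.164 CPM (log2 difference 1.01, SE 0.22, limma adjusted p = 0.00726), a gene that shares 3.74% of its exonic bases with other genes. Of the 2 that fell, Ppargc1b was 9.15 ± 0.658 against 14.1 ± 1.25 CPM (log2 difference -0.57, SE 0.17, limma adjusted p = 0.0132). Its call was lost without ETV6-RUNX1 fetal liver replicate 1 (limma adjusted p = 0.0509). The other is not reported here. Of 10 interferon-linked mitochondrial and RNA-decay genes, limma called 8 higher and 0 lower in each source. At an unadjusted p under 0.05, 0 were lower in fetal liver and 1 in bone marrow. edgeR called 8 higher and 0 lower in fetal liver and 6 and 1 in bone marrow, and DESeq2 9 and 0, and 7 and 1. The median of the 10 was 2.64 in fetal liver and 1.47 in bone marrow. In fetal liver Irgm1, an interferon-induced GTPase, was 646 ± 128 against 65.1 ± 4.48 CPM (log2 difference 3.27, SE 0.20, limma adjusted p = 2.44e-08), and in bone marrow it was 297 ± 77.3 against 121 ± 17.3 CPM (log2 difference 1.26, SE 0.20, limma adjusted p = 0.000978). Rsad2, an antiviral enzyme, was 454 ± 172 against 6.14 ± 0.700 CPM (log2 difference 5.92, SE 0.37, limma adjusted p = 3.29e-08) and, in bone marrow, 98.5 ± 44.1 against 27.2 ± 10.4 CPM (log2 difference 1.77, SE 0.37, limma adjusted p = 0.00543). Pnpt1, the mitochondrial polynucleotide phosphorylase that degrades mitochondrial RNA and is interferon-induced, was 79.7 ± 23.02 against 53.8 ± 6.75 CPM in fetal liver and missed the threshold (limma adjusted p = 0.0501). For reference, 18.3% of all genes tested fell and 24.8% rose in fetal liver, and 4.93% fell and 14.4% rose in bone marrow.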

How the data were processed

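Per the labels' protocols, RNA came from a Norgen kit for single cells, libraries from the SMARTer Stranded Total RNA-Seq Kit of the pico input type, and reads, in pairs, from a NovaSeq instrument. The authors deposited 1 table of CPM values per gene, with 12 columns. STAR 2.5.1a, Subread, featureCounts 1.4.6-p5, Salmon 0.8.2, edgeR, limma, bcl2fastq and the build GRCm38 are named in the submitters' processing notes, without roles. The annotation, the use of strand and the treatment of reads with several matches are not given in the sources used here. In every column 100% of the values were whole multiples of 1 read within 0.01 read, so whole reads were recovered. Of 40757 rows, 276 repeated a gene ID and were counted once, leaving 40481 genes. No value column without a sample was present.

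log2(CPM + 1) was fitted with limma 3.58.1 (R 4.3.3, eBayes with trend) for the 14271 genes at 1 CPM or more in 3 or more of 12 libraries, with 1 coefficient per group, 8 residual degrees of freedom and Benjamini-Hochberg adjustment over all these genes. The tests were two-sided, with a threshold of 0.05, and were checked on simulated data. Alternatives were edgeR 4.0.16 and DESeq2 1.42.0 on recovered reads (on which they called 6178 and 6540 genes in fetal liver, against 6151 by limma), other scalings, filters and pseudocounts, a replicate block, array weights, the pseudogene share as a covariate, only the 6 libraries compared, and each library left out. Copies were found with blastn 2.17.0+.

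Members and lists were chosen with earlier results of these data known. Every member that passed the filter is named, with full statistics for the 13 protein genes in fetal liver and for calls elsewhere, and of each list at most 4 called genes by smallest p. Some list members are not reported here. The added alternative of summing copies with their genes was chosen after seeing the data.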

Additional observations from a re-analysis of the deposited data

Results flagged for a closer look

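By limma's interaction test, the effect of ETV6-RUNX1 was called different between fetal liver and bone marrow for 5 mitochondrial genes. Of all genes tested, 9.19% were called for the interaction, 3.62% negative. The calls were not stable, and edgeR, DESeq2, the replicate block and the pseudogene share as a covariate called no mitochondrial protein gene. Over all genes tested these settings called 1105, 1769, 1033 and 543 for the interaction, against 1311 in the report. mt-Nd1 had a difference of -0.77 (SE 0.21, limma adjusted p = 0.0372) and was called under 10 of 24 alternatives. mt-Nd2 had -0.77 (SE 0.21, limma adjusted p = 0.0349), called under 9. mt-Cytb had -0.75 (SE 0.20, limma adjusted p = 0.0342), called under 8. mt-Nd4 had -0.66 (SE 0.19, limma adjusted p = 0.0404), called under 7. The tRNA gene mt-Tl1 had -1.10 (SE 0.31, limma adjusted p = 0.0382), called under 11 of 23. mt-Tl1 passed the filter only with the ETV6-RUNX1 bone marrow libraries, where its mean was highest. In every one of these 5 genes the genotype effect was lower in fetal liver.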

How the results depend on the processing

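The counts of called genes moved as follows. With the pseudogene share as a covariate, the protein calls were 5 in fetal liver (9 in the report), 1 in bone marrow, 3 between sources in ETV6-RUNX1 cells (11 in the report), 2 in WT cells and 0 for the interaction, and RNA calls were 1 between sources in ETV6-RUNX1 cells and 0 for the interaction. In fetal liver that covariate also called 1 RNA gene, but mt-Tq (higher) in place of mt-Tl1 (lower). DESeq2 gave 2 proteins in bone marrow, 0 between sources in WT cells and 0 for the interaction, with 2 RNA genes in fetal liver and 1 between sources in ETV6-RUNX1 cells. edgeR gave 1, 0 and 0 proteins, and 2, 1 and, for the interaction, 0 RNA genes. Median-of-ratios scaling gave 1 protein in bone marrow, 0 between sources in WT cells and 0 for the interaction, and 2 RNA genes between sources in ETV6-RUNX1 cells. Array weights gave 9 proteins and 5 RNA genes for the interaction and 2 RNA genes in fetal liver. With all genes that had reads, the interaction had 0 proteins and 0 RNA genes, fetal liver 0 and bone marrow 5 RNA genes. Keeping only genes with means of 5 CPM or more, RNA calls were 0 in fetal liver, 1 in bone marrow, 2 between sources in ETV6-RUNX1 cells and 0 for the interaction. Quantile normalization gave 3 RNA genes in fetal liver and 2 for the interaction. Only the 6 libraries compared gave 2 RNA genes in fetal liver, 2 between sources in ETV6-RUNX1 cells and 0 proteins in WT cells; the interaction needs all 12 and was not run there. Calls over all genes moved too. For the interaction they were 1311 of 14271 in the report, 3637 with array weights and 543 with the pseudogene share as a covariate. edgeR and DESeq2 called 1105 and 1769 there. In fetal liver they were 6151 in the report, 7825 with array weights and 4955 with the covariate. In bone marrow that covariate raised them from 2763 to 3905. Between sources in ETV6-RUNX1 cells it lowered them from 4088 to 3203. The causes were not tested.

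Leaving out single libraries gave 5 to 10 proteins in fetal liver (5 without ETV6-RUNX1 replicate 2), 0 in bone marrow, 0 to 7 for the interaction, 10 to 11 between sources in ETV6-RUNX1 and 0 to 2 in WT cells. RNA calls ran from 0 to 3, 2 to 3, 0 to 2, 1 to 5 and 0. Over all genes tested, single libraries left out gave 4666 to 6638 calls in fetal liver and 731 to 2332 for the interaction. The replicate block changed 1 count by more than 1.5 times, the proteins of the interaction, to 0; with the block 9 proteins were called in fetal liver. Deviations of same-numbered libraries correlated at -0.44 to 0.39, with 7 of 18 pairs above 0.1. Those of differently numbered libraries ran from -0.50 to 0.66, with 14 of 36 pairs above 0.1. With 3 libraries per group, these correlations cannot tell whether the numbers stand for a pairing or a batch.

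For 130 single-gene results, 3217 alternatives were run: 2860 kept direction and call, 289 lost the call, 40 gained one and 28 changed sign or went to 0. Part of this agreement was fixed in advance. Leaving out a library outside the groups compared does not change the estimate. Results not called that stayed so count as kept, and so does a missing adjusted p. mt-Co1 in fetal liver was -0.011 with DESeq2, -0.033 with edgeR, -0.0017 with array weights and -0.079 (without WT replicate 1) to 0.20 with single libraries left out. mt-Tp was 0.033, Gm10925 0.0097, Gm28437 0.033 and Gm28439 0.17 with the covariate. Gm28439 was 0.014 with array weights and ran from -0.20 to 0.16 with single libraries left out, above 0 without ETV6-RUNX1 replicate 2 or WT replicate 3. In bone marrow, mt-Nd4l was 0.030 with copies added. mt-Co1 was there -0.016 with array weights and -0.047 to 0.28 with single libraries left out. mt-Tp was -0.27 with the covariate, -0.052 with quantile normalization and -0.075 to 0.55 with single libraries left out. mt-Rnr1 and mt-Rnr2 were -0.13 and -0.053 with DESeq2, -0.14 and -0.061 with edgeR, -0.093 and -0.036 with median-of-ratios scaling, and -0.36 and -0.18 with the covariate. They were -0.13 to 0.28 and -0.0089 to 0.31 with single libraries left out, and mt-Rnr2 was 0 with quantile normalization. None of these was called in the report. Depth limits the tRNA genes: 5 of 22 stayed at 3 reads or fewer throughout.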
